A study of Drosophila melanogaster with 36 samples.

Results

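The genes described here encode the proteins of the cytosolic ribosome of Drosophila. They are the rows of the count files whose FlyBase symbol starts with RpL, RpS or RpLP, without RpL10Ab, the gene that carried the affinity tag in this study, and without the mRp genes of the mitochondrial ribosome. The rule found 91 genes among 17611 counted, 53 named for the large subunit and 38 for the small subunit. It used names alone, and it was chosen with earlier results of these data known.

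Cytosolic ribosomes translate nuclear mRNAs, and each of their proteins is normally present in a single copy per ribosome, except the acidic stalk proteins of the large subunit. Ribosomal protein mRNAs are short, abundant and made in step with each other. In mammals they carry a common start motif that places their translation, together with that of elongation factors, under the TOR kinase.

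The study purified ribosome-bound RNA from Drosophila heads by TRAP (translating ribosome affinity purification) with beads that bind GFP. Each of 3 genotypes was sampled uninjured and 7 days after both antennae and maxillary palps had been ablated (7 dpa). All carried one copy of orco-Gal4 in a w background, which drives UAS transgenes in the olfactory sensory neurons that express Orco. The background genotype carried no UAS transgene and therefore no tag, wild type carried 5xUAS-GFP::RpL10Ab, and dnmnatOE carried that tag together with 5xUAS-dnmnat, which encodes the NAD-synthesising enzyme Nmnat. An RNA library set was made from the whole head lysate (input) and from the beads (pulldown), giving 12 groups of 3 libraries. Each group came from 300 adults, and according to the labels the 3 libraries are technical replicates of it. A general statement in the methods of the study speaks of biological replication instead. If the labels hold, the p-values below measure the spread between technical libraries only. The ablated organs hold the cell bodies of the tagged neurons, so the projections in injured heads had been severed from them. Severed axons normally degenerate and are cleared, as in flies without the dnmnat transgene, and Nmnat overexpression is known to preserve them, so that dnmnatOE is the genotype in which severed projections were meant to persist at 7 dpa. Injured heads also lacked the tissue of the ablated organs. The labels name the uninjured samples as before injury, and their age at collection is not stated. Age may therefore differ between the conditions, and cannot then be told apart from injury. An affinity matrix also retains untagged RNA, and in the background pulldowns all of it is of that kind.

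Input libraries held 6628633 to 22329307 counts assigned to genes and pulldown libraries 644358 to 2057294. Inputs were poly-A selected and pulldowns were not, so that the fraction and the kind of library cannot be told apart. Ribosomal RNA rows took 14.4 to 39.4% of the gene counts in pulldowns and 1.11 to 6.36% in inputs. Counts of Nmnat, which would check the overexpression label, did not pass the test as higher in the libraries labelled dnmnatOE than in wild type, in either fraction or condition (edgeR). In uninjured pulldowns its mean was 14.5 CPM (counts of a gene scaled to the library's size) in dnmnatOE against 28.5 in wild type and 26.1 in background, and in uninjured inputs it was 26.3, 23.6 and 26.2 CPM. At 7 dpa the pulldown means were 8.65 CPM in dnmnatOE (23, 3 and 13 counts), 4.08 in wild type (0, 8 and 4 counts) and 9.41 in background (14, 9 and 2 counts), and the input means 20.2, 23.7 and 24.4 CPM. Whether transgene reads can fall on that row is not known, so dnmnatOE is used below as the label gives it. Orco had 0 to 45.8 CPM in the pulldowns, and a list of 13 olfactory neuron genes held at most 0.00534% of the gene counts of any pulldown library, with 7 to 11 of the 13 at 0 counts in a group. In uninjured pulldowns the list held 0.00186 to 0.00534% in wild type and 0.00184 to 0.00454% in dnmnatOE, above the 0.000402 to 0.00133% of background. At 7 dpa the 3 ranges overlapped, at 0.000168 to 0.00127%, 0.000683 to 0.00179% and 0.000609 to 0.00209%.

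Nearly all members were among the abundant RNAs of the head. Of the 91 members, 79 had counts in all 36 libraries, 83 passed the filter on low counts in inputs and 80 in pulldowns. The median member tested had a mean of 399 counts per library in pulldowns, from 17.1 for RpL38 to 1537 for RpL3. The 8 members tested in neither fraction were RpL10Aa, RpL22-like, RpL7-like, RpL37-2, RpS10a, RpS19b, RpS28-like and RpS28a. RpL10Aa, RpL22-like, RpL7-like and RpS28a had 0 counts in every library. For RpL7-like 98.8% of the exon bases are shared with CG34164 on the same strand, where reads may be ambiguous, so its 0 says nothing about its level. RpL22-like is known as a testis-enriched copy of RpL22. RpS5b, RpS15Ab and RpLP0-like passed in inputs only.

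Levels per length ranked the members within a library, as CPM per kb of exon. In inputs the highest were RpL27A (6178 ± 924 CPM per kb, SD over 18 libraries), RpL31 (5572 ± 827), RpS18 (4686 ± 571), RpL7A (4649 ± 890) and RpL8 (4531 ± 1123), the last of these a protein of the peptidyl transferase centre. These SDs include the differences between the 6 groups. Within libraries RpL27A was above RpL31 in 17 of 18 and RpL31 above RpS18 in 18 of 18, while RpS18 was above RpL7A in 10 and RpL7A above RpL8 in 13. At the other end the lowest 5 of the 83 members tested in inputs were RpL34a (385 CPM per kb), RpL38 (257), RpS15Ab (16.4), RpLP0-like (14.1) and RpS5b (1.67), a copy of RpS5a known from the germline. RpLP0-like is the homolog of a yeast factor that assembles the stalk. The 10th and 90th percentiles of the 80 members tested in pulldowns lay 2.95-fold apart in inputs and 4.36-fold apart in pulldowns. In pulldowns RpL8 (1133 ± 380 CPM per kb), RpL6 (1105 ± 407), RpL27A (1082 ± 355), RpL23A (1040 ± 287) and RpL4 (986 ± 263) had the highest means. Their order changed between libraries, with RpL8 above RpL6 in 12 of 18, RpL6 above RpL27A in 8, RpL27A above RpL23A in 9 and RpL23A above RpL4 in 13. RpL38 (16 CPM per kb) and RpL34a (60.3) were lowest of the tested members there. The order in inputs and in pulldowns was alike (Spearman rho 0.787 over 80 members, which share gene length and library, as a description). Using the longest transcript in place of all exon bases left 3 of the highest 5 in inputs and 4 of the highest 5 in pulldowns in place.

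**Figure D1:**
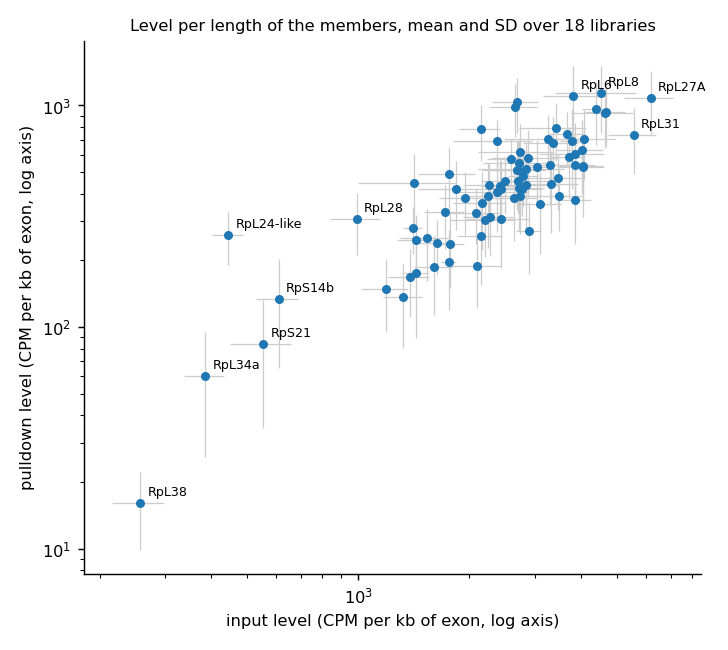
Level of the 80 members tested in pulldowns, as CPM per kb of exon in inputs (horizontal, log axis) and pulldowns (vertical, log axis), each point a gene with its mean and SD over 18 libraries. Most members form one cloud, and RpL38, RpL34a, RpS21, RpS14b and RpL24-like lie below it in inputs, with RpL38 at 257 and 16 CPM per kb.

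In the pulldowns the members rose as a group after injury in every genotype and most in dnmnatOE, where they had started lowest. Their share of all gene counts was 2.08, 2.32 and 2.35% in the uninjured dnmnatOE libraries and 4.71, 4.46 and 4.58% at 7 dpa. In wild type it was 2.71, 2.44 and 2.78% before and 4.11, 3.63 and 4.41% after injury. In background it was 3.82, 3.61 and 3.71% before and 5.35, 5.12 and 5.24% after. In each genotype all 3 injured libraries lay above all 3 uninjured ones. The share was highest in background, where no tag was present, in both conditions. The rise was 2.04-fold in dnmnatOE, from 2.25% ± 0.146 to 4.58% ± 0.127 (SD, n = 3), 1.53-fold in wild type and 1.41-fold in background, each with an exact two-sided permutation p of 0.1, the smallest that 3 against 3 libraries allow. Leaving out the ribosomal RNA rows gave 1.95-fold, 1.29-fold and 1.34-fold.

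**Figure D2:**
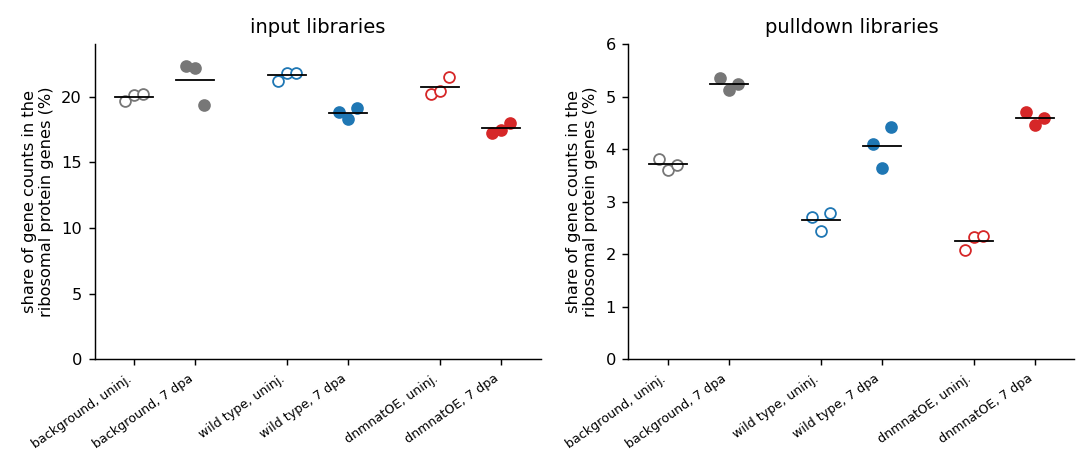
Share of gene counts (%) held by the 91 members in each input library (left) and pulldown library (right), with open points for uninjured, filled points for 7 dpa and a bar at the mean of 3. In pulldowns each injured group lies above its uninjured group, and the uninjured dnmnatOE libraries, at 2.08 to 2.35%, are the lowest.

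Each gene was tested with edgeR's quasi-likelihood test, and a gene was called where its Benjamini-Hochberg adjusted p did not exceed 0.05 and its log2 fold change passed 0.6 in size. With injury in the dnmnatOE pulldowns 69 of 80 members rose and 0 fell, while 7.36% of all 7213 genes tested were called higher and 4.49% lower. The log2 fold changes of the members had a median of 1.09 and all 80 lay above 0, against a median of 0.00 over all genes. For 77 of the 80 all injured libraries lay above all uninjured ones, against 19.5% of all genes. In wild type 23 of 80 rose, with 3.92% of all genes called higher and 2.3% lower, and the median was 0.51. In background 12 rose, with 1.64% of all genes called higher and 0.943% lower, and the median was 0.41. Under the same test 0 members fell in either genotype. By DESeq2 the risen members numbered 70, 23 and 13 in dnmnatOE, wild type and background. The background count fell to 7 without uninjured background replicate 1 and to 5 without replicate 2, and the wild-type count fell to 6 when only those 6 libraries were fitted. Scaling by total counts, which moved the median of all genes by 0.15 in wild type and 0.12 in background, raised those counts to 40 and 22. Here and below, member counts under DESeq2, this scaling, other fits or a library left out lack the share of all genes called there. They are therefore not read as a result about the members.

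**Figure D3:**
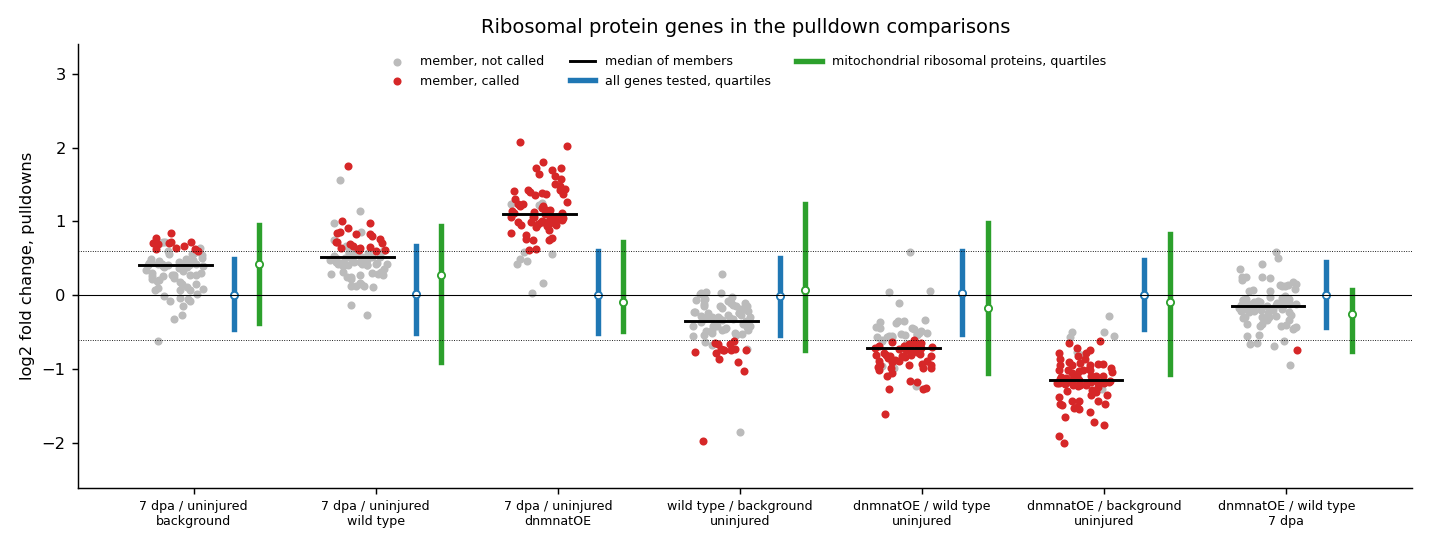
Log2 fold changes of the 80 members (points, red where called) in 7 pulldown comparisons, with the median of the members (black bar) beside the quartiles and median of all genes tested (blue) and of 27 mitochondrial ribosomal protein genes (green), and dotted lines at the threshold of 0.6. The members lie above 0 in dnmnatOE after injury (median 1.09) and below 0 in uninjured dnmnatOE against background (median -1.14). In dnmnatOE over wild type at 7 dpa their median of -0.14 turns to 0.20 with scaling by total counts, which also raises the median of all genes.

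Before injury the order of the genotypes was background, wild type, dnmnatOE from high to low. In dnmnatOE over background 72 of 80 members were lower and 0 higher by edgeR, against 3.41% of all genes called lower and 2.14% higher, and the members had a median of -1.14 on the log2 scale, each of them below 0. All 3 dnmnatOE libraries lay below all 3 background libraries for 79 of the 80, against 12.2% of all genes. In dnmnatOE over wild type 48 were lower, with 4.16% of all genes called lower and 2.48% higher, and the median was -0.72. In wild type over background 16 were lower, with 1.47% of all genes called lower and 1.54% higher, and the median was -0.34. That last count was 10 without uninjured background replicate 3 and 5 in a fit of the 6 libraries alone. The normalization bears on the dnmnatOE counts: scaling by total counts moved the median of all genes to 0.55 over wild type and to 0.38 over background, left 6 and 53 members called, and gave member medians of -0.19 and -0.77. Ribosomal RNA rows, which enter total counts, held a mean of 20.6% of gene counts in uninjured dnmnatOE, 36.7% in wild type and 25.3% in background. The members' share in dnmnatOE was 0.85-fold that of wild type and 0.61-fold that of background. Without those rows it was 0.68-fold and 0.57-fold. The part of ribosomal RNA in the shift was not tested. These comparisons share libraries with each other and with the injury comparisons, so they are not independent.

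RpL32, a large subunit gene long used as a reference for quantitative PCR in flies (FBgn0002626, 3R, 30045229 to 30046161, minus strand, protein-coding, Ensembl annotation of the BDGP6 build), had the largest fall among the well-counted members called in uninjured dnmnatOE over background. Its pulldown level was 524, 371 and 388 CPM in uninjured background, 234, 225 and 319 CPM in uninjured wild type and 86.7, 113 and 123 CPM in uninjured dnmnatOE, 3 ranges that did not overlap. At 7 dpa it was 481, 549 and 424 CPM in background, 383, 409 and 400 CPM in wild type and 508, 418 and 382 CPM in dnmnatOE, so that the dnmnatOE range overlapped both others. The log2 fold change with injury in dnmnatOE was 2.02 (SE 0.18, adjusted p 1.3e-12 by edgeR), against 0.62 in wild type and 0.18 in background. In inputs RpL32 stayed between 2083 and 3604 CPM.

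RpS13, a small subunit gene (FBgn0010265, 2L, 8363477 to 8364662, minus strand, protein-coding), was low in uninjured dnmnatOE alone among the 6 pulldown groups. It had 111, 140 and 110 CPM there, against 445, 378 and 381 CPM in uninjured background and 340, 423 and 328 CPM in uninjured wild type. At 7 dpa the dnmnatOE libraries were at 347, 340 and 381 CPM, close to the 377 to 420 CPM of wild type and the 374 to 446 CPM of background. Its log2 fold change in uninjured dnmnatOE over wild type was -1.60 (SE 0.17, adjusted p 2.6e-10 by edgeR) and it rose with injury in dnmnatOE by 1.57, while in wild type and background the values of 0.13 and 0.07 did not pass the test.

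RpL29 showed the highest fold with injury in dnmnatOE on few counts. It had 20.6, 16.1 and 23.3 CPM before and 73.0, 88.5 and 93.4 CPM after injury, a log2 fold change of 2.07 (SE 0.40, adjusted p 7.8e-05 by edgeR). In uninjured background its libraries spread from 32.3 to 101 CPM. RpS28b went from 69.7, 69.8 and 73.3 CPM to 257, 238 and 249 CPM in dnmnatOE (log2 fold change 1.81), with no overlap. RpL30 (1.73) and RpS27A (1.72) followed. In wild type the largest called rises of well-counted members were those of RpS28b (1.01), RpS16 (0.98), RpS27A (0.91), RpL26 (0.86) and RpS26 (0.84), and in background such rises included those of RpL9 (0.85), RpS27 (0.77), RpL34b (0.73) and RpL22 (0.73).

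**Figure D4:**
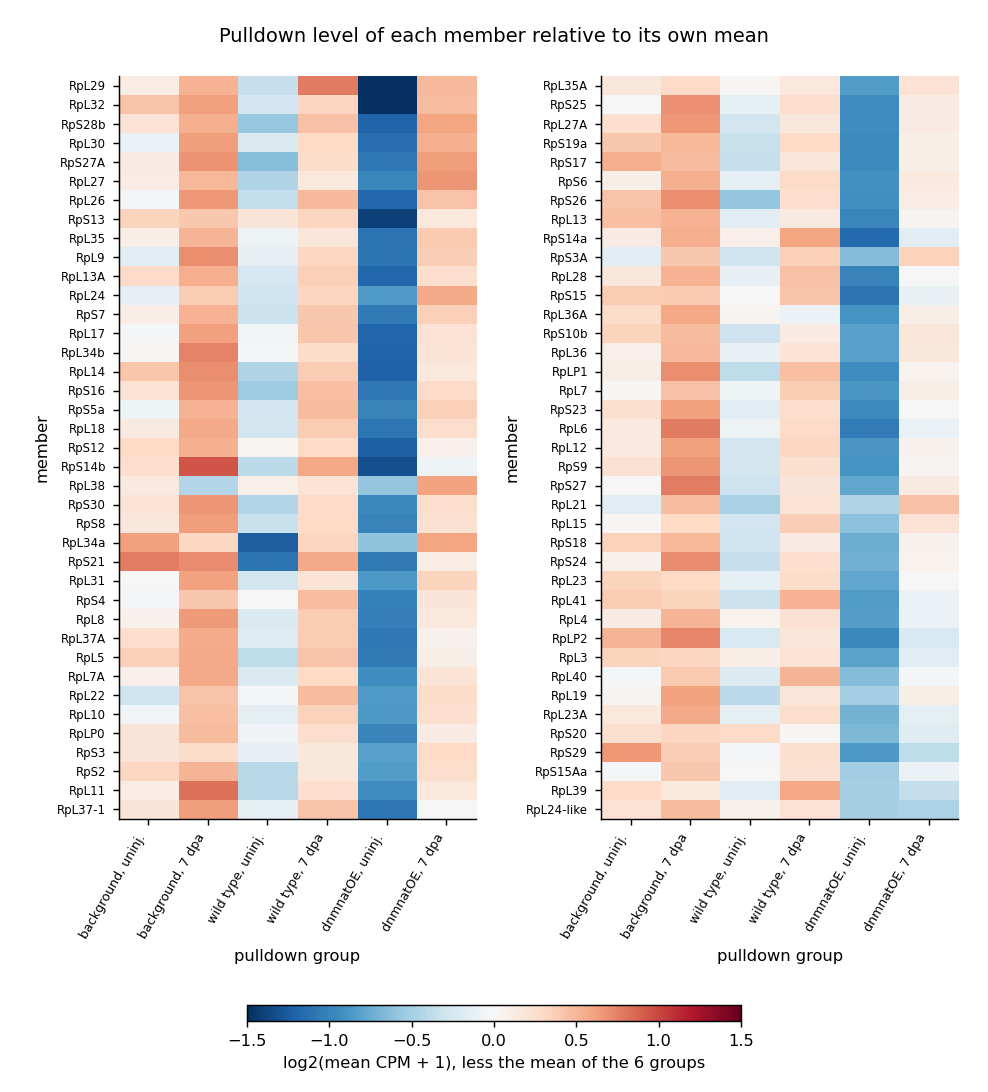
Mean pulldown level of 78 of the 80 tested members in the 6 groups, as log2(mean CPM + 1) less the member's own mean over the groups, ordered from the largest to the smallest log2 fold change with injury in dnmnatOE (2.07 for RpL29 to 0.04 for RpL24-like). The column of uninjured dnmnatOE is low in nearly every row.

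The stalk proteins, which recruit elongation factors to the large subunit, moved with the rest. RpLP0 had 568, 455 and 479 CPM in uninjured dnmnatOE and 1082, 1069 and 1102 CPM after injury, a rise of 1.11 on the log2 scale (SE 0.12, adjusted p 2.1e-10 by edgeR). In wild type RpLP0 stood at 1096, 826 and 956 CPM before and 1122, 1172 and 1290 CPM after injury, and the difference of 0.32 did not pass. RpLP1 rose in dnmnatOE by 0.99 and in wild type by 0.83. RpLP2 rose in dnmnatOE by 0.74 and led the members below background at 7 dpa, with 303, 306 and 390 CPM against 675, 682 and 585 CPM (log2 fold change -0.96, adjusted p 0.00022 by edgeR).

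RpL40 and RpS27A are made as fusions to ubiquitin and are a source of it in the cell. RpS27A went from 83.6, 95.7 and 95.1 CPM to 303, 310 and 288 CPM in dnmnatOE (1.72) and from 156, 94.5 and 122 CPM to 218, 258 and 228 CPM in wild type (0.91), with no overlap in either. RpL40 rose by less in dnmnatOE (0.62, from 207, 161 and 185 CPM to 250, 348 and 256 CPM) and by 0.71 in wild type. The sign of both in uninjured dnmnatOE over wild type depended on scaling, at -0.45 for each by TMM and 0.06 for RpL40 and 0.07 for RpS27A by total counts.

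RpS6, the small subunit protein phosphorylated by S6 kinase downstream of TOR, had 568, 426 and 453 CPM in uninjured dnmnatOE and 1014, 981 and 1003 CPM at 7 dpa. The rise was 1.05 (SE 0.13, adjusted p 7.4e-09 by edgeR). In wild type (996, 688 and 786 to 1043, 1223 and 1045 CPM) and background (945, 1084 and 858 to 1365, 1358 and 1225 CPM) the adjusted p passed but the fold changes of 0.42 and 0.45 did not. Of the exon bases of RpS6, 16.9% are shared with other annotated genes.

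The 11 tested members that did not pass in dnmnatOE after injury fell into 2 kinds. RpL38 (1.25), RpL34a (1.23), RpS21 (1.22) and RpL41 (0.76), the smallest ribosomal protein, passed the fold threshold but not the adjusted p. RpL38 had low counts, and RpS21 and RpL34a had scattered ones. RpS21 had 2.62, 11.6 and 71.0 CPM in uninjured wild type, and RpL34a had 32.7, 0 and 8.87 CPM there. RpL23A (0.56) and RpL19 (0.59) passed the adjusted p but not the fold threshold, and RpS15Aa (0.42), RpS20 (0.50), RpS29 (0.47), RpL39 (0.17) and RpL24-like (0.04) had smaller values. RpL24-like, whose yeast homolog is an assembly factor rather than a ribosomal protein, had 142, 147 and 126 CPM before and 168, 107 and 147 CPM after injury in dnmnatOE, with overlapping ranges. Its sign turned to -0.15 without dnmnatOE 7 dpa replicate 1, to -0.06 without uninjured replicate 3 and to -0.03 without 7 dpa replicate 3. In dnmnatOE over background RpL24-like was lower in both conditions (-0.71 uninjured and -0.94 at 7 dpa). RpL23A, whose protein sits at the exit of the nascent chain tunnel, was likewise lower than in background in both (-0.86 and -0.71).

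**Figure D5:**
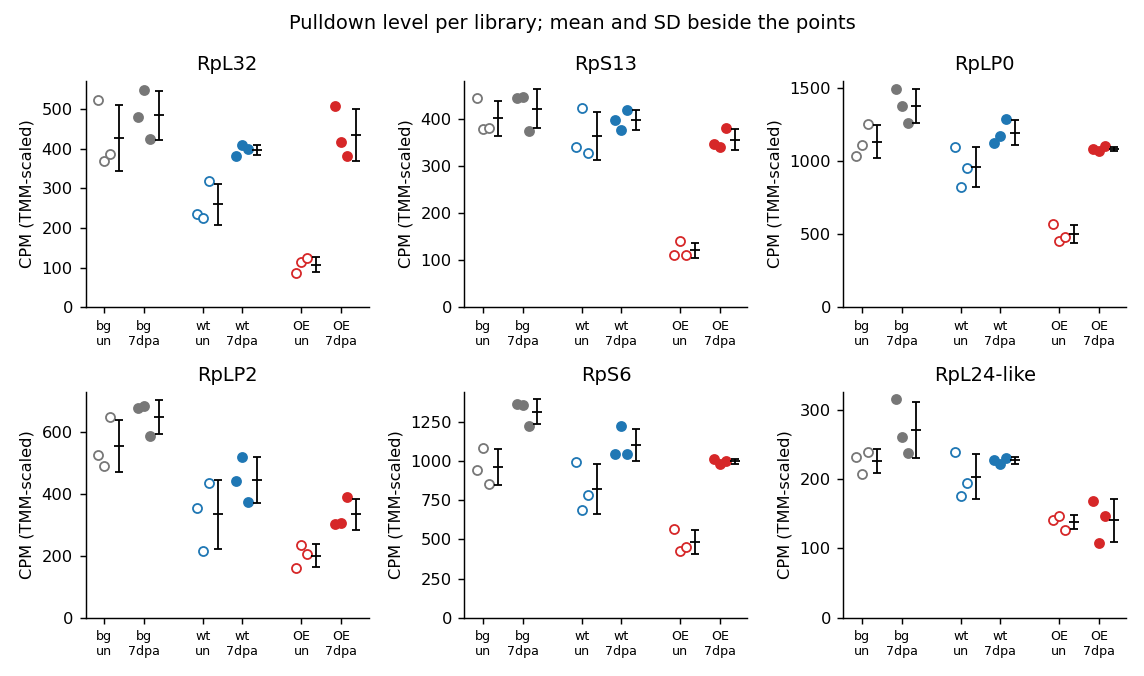
Pulldown level (CPM on TMM-scaled library sizes) of 6 members in each library, open points for uninjured and filled points for 7 dpa in background (bg), wild type (wt) and dnmnatOE (OE), with the mean and SD of 3 beside them. RpL32, RpS13, RpLP0, RpLP2 and RpS6 are higher after injury than before in dnmnatOE, and RpL24-like overlaps (126 to 147 CPM before and 107 to 168 CPM after).

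Several members have a second gene copy, and the copies of a pair often differed in level. RpS14a and RpS14b lie next to each other on X. In uninjured background pulldowns RpS14a had a mean of 378 CPM and RpS14b 84.6 CPM, and both rose with injury in dnmnatOE, by 1.02 and 1.27. RpS14a was the 1 member called in dnmnatOE over wild type at 7 dpa, with 290, 288 and 354 CPM against 562, 519 and 480 CPM (log2 fold change -0.74, SE 0.17, adjusted p 0.0027 by edgeR). A count of 1 is near the share of all genes called lower there, 1.37%, so it is not read as a result about the members. RpL34b rose by 1.41 in dnmnatOE (201, 195 and 175 to 480, 533 and 501 CPM), and RpL34a, at 17, 32.2 and 16.8 to 47.8, 72.0 and 34.8 CPM, did not pass. Of other members with a second copy, RpL37-1 rose by 1.09, RpS5a by 1.37, RpS10b by 0.99, RpS19a by 1.06 and RpL22 by 1.13, while RpS15Aa, named above, did not pass. RpL24, whose relative RpL24-like has an assembly factor as its yeast homolog, rose by 1.42. Reads of near-identical copies can be split or lost in counting, so the values of such pairs are uncertain.

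The question whether injury moved the members differently between genotypes was tested as a difference of changes. The rise was larger in dnmnatOE than in wild type for 20 of 80 members and smaller for 0 by edgeR, against 1.77% of all genes called higher and 1.28% lower, with a median difference of 0.57. Among the well-counted ones with the largest differences were RpS13 (1.44, adjusted p 4e-05), RpL32 (1.40, 0.00022) and RpL35 (1.25, 0.00022). Against background the rise in dnmnatOE was larger for 36 members, with 2.73% of all genes called higher and 1.87% lower, led by RpL32 (1.84), RpS13 (1.5), RpS28b (1.48), RpL27 (1.27) and RpL13A (1.18). Between wild type and background 0 members differed by edgeR or DESeq2 (10 of 80 at an unadjusted p under 0.05, 1.15% of all genes called in either direction), with a median of 0.12. The count of 20 fell to 10 without dnmnatOE 7 dpa replicate 1 or 3, to 12 and 13 without uninjured dnmnatOE replicate 3 or 2 and to 13 without wild type 7 dpa replicate 2. Under scaling by total counts, with the median of all genes at -0.17 and -0.12, it was 7, and the count of 36 was 16.

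The spread among members exceeded their errors. The SD of the 80 log2 fold changes with injury in dnmnatOE was 0.371, against a median standard error of 0.165, and in uninjured dnmnatOE over background it was 0.320 against 0.166. With injury in dnmnatOE 41 of 48 tested large subunit members rose (median 1.10) and 28 of 32 small subunit members (median 1.06). In uninjured wild type over background 11 of 32 small subunit members and 5 of 48 large subunit members were lower, with medians of -0.42 and -0.29, a difference that was not tested. The 14 members on X and the 66 tested members on other chromosomes had medians of 1.11 and 1.08 with injury in dnmnatOE. The 27 with a small nucleolar RNA gene inside them, a common arrangement for ribosomal protein genes, had 1.13 and the others 1.06. Across the 80 members the fold change and exon length had a Pearson r of 0.02, across genes, which are not independent replicates. Members that share exon bases with another annotated gene had a median of 1.00 and the rest 1.11.

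At 7 dpa fewer members were called between genotypes. In dnmnatOE over wild type 1 member (RpS14a) was lower, near the share of all genes, with 1.37% of them called lower and 1.23% higher. The median of the members was -0.14. In wild type over background 1 was lower, RpL36A (-0.67, adjusted p 0.048 by edgeR), with 0.832% of all genes called lower and 2.22% higher, and the median was -0.25. Leaving out background 7 dpa replicate 2 or 3, or wild type 7 dpa replicate 1 or 2, left 0 called. In dnmnatOE over background 11 were lower, with 2.19% of all genes called lower and 2.5% higher, and the median was -0.40, led by RpLP2, RpL24-like, RpL6 (-0.88), RpS29 (-0.77) and RpL23A (-0.71). That count was 7 without dnmnatOE 7 dpa replicate 1 and 6 without replicate 2. Under scaling by total counts, which moved the median of all genes to 0.34 over wild type and to 0.21 over background, dnmnatOE over wild type turned to a member median of 0.20 with 3 called higher, and 3 members were called lower in dnmnatOE over background.

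In the inputs the members held 17.3 to 22.3% of the gene counts, and the sign of their change with injury in dnmnatOE and wild type depended on the scaling. Their share was 21.2 to 21.8% in uninjured and 18.3 to 19.1% in injured wild type, and 20.2 to 21.5% in uninjured and 17.26 to 18.01% in injured dnmnatOE, with no overlap in either (0.867-fold and 0.849-fold, exact two-sided permutation p 0.1, the smallest possible). In background the share was 19.7 to 20.2% before and 19.3 to 22.3% after injury. In the same inputs the yolk protein genes went from 6.85 to 7.53% to 16.7 to 18.3% in dnmnatOE, from 7.17 to 7.46% to 11.8 to 12.8% in wild type and from 6.71 to 6.87% to 7.91 to 9.01% in background. The 9 photoreceptor genes went from 4.47 to 4.61% to 1.16 to 1.24%, from 3.64 to 3.70% to 2.03 to 2.09% and from 5.25 to 5.40% to 4.07 to 4.25%, and the male RNAs roX1 and roX2 in dnmnatOE from 0.0391 to 0.0426% to 0.00792 to 0.00831%. Their part in the shift of the members' share was not tested. On the TMM scale, which sets the bulk of genes equal, 23 of 83 members were called higher with injury in dnmnatOE, with a median of 0.46. That count is near the 26.5% of all genes called higher, so it is not read as a result about the members. The 0 members that fell are given without the share of all genes called lower. Scaling by total counts put the median of all genes at -0.81, the median of the members at -0.28, and called 0 higher and 12 lower. Under either scaling the member median lay above that of other genes (-0.08 off X and -0.07 on X by TMM). On the TMM scale RpS4, a small subunit protein (0.98), RpL7 (0.89), RpL26 (0.84), RpL3 (0.84) and RpL8 (0.82) had the largest values. RpS4 had 2999, 3079 and 3134 CPM before and 5928, 5891 and 6284 CPM after injury in dnmnatOE. Across the members this input change and exon length had a Pearson r of 0.36, across genes, which are not independent replicates. The members just named have 1167 to 2231 nt of exon, where the median member had 899 nt. Other coding genes of 500 to 1000 nt had a median of -0.314, and those of 1000 to 1500 nt 0.075. The part of length in these values was not tested.

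In wild type and background inputs 0 members passed with injury by edgeR and by DESeq2, against 28.5% and 15.2% of all genes called in either direction. At an unadjusted p under 0.05 there were 47 and 53 members, and the medians were 0.14 and 0.13 by TMM and -0.25 and 0.06 by total counts. In dnmnatOE over wild type 1 member was called higher at 7 dpa (5.98% of all genes called higher), with a median of 0.23 that turned to -0.10 by total counts. The member was RpS5b, with 30, 1 and 89 counts in dnmnatOE against 12, 8 and 10 in wild type, 2 ranges that overlapped. Before injury 2 were called lower (6.44% of all genes called lower), RpS15Ab (-0.66) and RpS21 (-0.60), with a median of -0.09. RpS21 had 584, 575 and 572 CPM in uninjured wild type inputs against 380, 354 and 405 CPM in dnmnatOE and 397, 422 and 423 CPM in background. Without wild type uninjured replicate 1 or dnmnatOE uninjured replicate 2 neither was called. The change with injury in inputs was larger in dnmnatOE than in wild type for 1 member, again RpS5b (13% of all genes called higher), with a median of 0.32 by TMM and -0.04 by total counts. In wild type over background inputs 0 members passed by edgeR in either condition, against 6.52% of all genes uninjured and 14.6% at 7 dpa, with medians of 0.14 in both. DESeq2 called 0 uninjured and 1 at 7 dpa, 40 members had an unadjusted p under 0.05 uninjured and 49 at 7 dpa, and at 7 dpa the median turned to -0.21 by total counts.

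Set against their inputs, the members were low in every pulldown group. Between 79 and 82 of 83 were called lower, where 21.6, 24.6 and 18.7% of all genes were called lower in uninjured background, wild type and dnmnatOE and 18.9, 20.7 and 23.3% at 7 dpa. The medians were -2.36 in uninjured background, -2.86 in uninjured wild type and -3.44 in uninjured dnmnatOE. At 7 dpa they were -1.94, -2.24 and -2.57. The medians of all genes lay between -0.46 and -0.21. RpS5b alone was called higher, in wild type at 7 dpa (14.6% of all genes called higher), on 16 counts in 1 pulldown library of that group and 0 in the others of that group. RpL38 stood lowest in uninjured dnmnatOE (-4.72), with RpL29 (-4.65), RpS12 (-4.59), RpL37A (-4.57) and RpL30 (-4.52) near it. Other coding genes of similar length were also low, with a median of -1.74 in uninjured dnmnatOE for those of 500 to 1000 nt of exon and 0.82 for those above 4000 nt, and the median exon length of the members was 899 nt. The part of length in this contrast was not tested, and that of poly-A selection cannot be told apart from the fraction.

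The untagged background shares the library type of the tagged pulldowns, so the difference of the pulldown-over-input ratios asks whether the tag enriched the members. In wild type against background 22 of 83 were lower and 0 higher uninjured (2.08% of all genes called lower) and 2 lower at 7 dpa (0.801% of all genes), with medians of -0.49 and -0.30. In dnmnatOE against background 71 were lower uninjured (1.72% of all genes), with a median of -1.12, and at 7 dpa 45 were lower and 1 higher (4.81% lower and 5.34% higher of all genes), with a median of -0.63. The 1 higher member was RpL38 (1.47, adjusted p 0.0017 by edgeR), at 27.1, 23.6 and 22 CPM in the dnmnatOE pulldowns against 11.1, 8.81 and 13.9 CPM in background. At 7 dpa in dnmnatOE the sign depended on scaling: by total counts, with the median of all genes at 0.87, the member median was 0.13 and 2 were higher. Under either scaling the member median lay below that of other genes (0.13 both off X and on X by TMM). Leaving out background 7 dpa input replicate 3 gave 17 calls in place of 46, and leaving out dnmnatOE 7 dpa pulldown replicate 1 or 2 gave 30 or 27. The wild type count of 22 fell to 13 without uninjured background input replicate 1 and to 14 without background input replicate 2 or wild type input replicate 2 or 3, and the count of 2 ranged from 0 to 4 over the libraries left out.

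RpL10Ab, the gene of the tagged protein, had values like those of the members. Its pulldown level was 545, 568 and 452 CPM in uninjured background, 491, 453 and 497 CPM in uninjured wild type and 226, 241 and 247 CPM in uninjured dnmnatOE, so that the genotype without the transgene was not the lowest. At 7 dpa it was 728, 670 and 751 CPM, 635, 539 and 612 CPM, and 527, 417 and 511 CPM. Its inputs were 3011 to 3052 CPM in uninjured background and 3335 to 3547 CPM in uninjured wild type. Other genes of the cytosolic ribosome showed like values. The small subunit protein sta and Rack1, a scaffold on the small subunit, were lower in uninjured dnmnatOE than in background (-1.08 and -0.82) and rose with injury in dnmnatOE (1.12 and 0.66).

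Elongation factors went both ways. In dnmnatOE pulldowns 5 of 8 rose with injury and 1 fell. eEF1alpha1, which brings aminoacyl-tRNA to the ribosome, rose by 1.48 (adjusted p 3.15e-21 by edgeR), eEF1beta by 1.19, eEF1gamma by 1.03, eEF2, the translocase, by 0.83 and eEF5 by 0.76. eEF1alpha2, a second gene for the same factor, fell by 1.07 in pulldowns and by 2.77 in inputs. Of the 73 genes of mitochondrial ribosomal proteins 27 were tested in pulldowns, and with injury in dnmnatOE 0 were called by edgeR (1 at an unadjusted p under 0.05) with a median of -0.09 and quartiles that span 0. In uninjured dnmnatOE over background 0 of 27 were called (1 at an unadjusted p under 0.05), with a median of -0.09. Their quartiles were wide in both, and a difference from the cytosolic members was not tested. Of 23 ribosome assembly factors 18 were tested in pulldowns, and 1 rose with injury in dnmnatOE and 0 fell, with a median of 0.72, beside 7.36% of all genes called higher and 4.49% lower. In inputs 12 of 23 rose and 0 fell on the TMM scale, beside 26.5% of all genes called higher. Of 15 TOR and ribosomal protein gene regulators 13 were tested in pulldowns, and 1 rose and 1 fell, near the share of all genes. Xrp1, a transcription factor known to respond to the loss of a ribosomal protein gene copy in flies, was lower in uninjured dnmnatOE than in background (-0.73) and than in wild type (-0.84) and rose with injury in dnmnatOE (0.61). crc, the fly ATF4, fell by 1.16 with injury there and was higher than background before it (1.27).

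Markers of other cells and of sex also differed between pulldown groups. The yolk protein genes Yp1, Yp2 and Yp3, made in females, held 2.60 to 2.98% of gene counts in uninjured and 4.10 to 4.54% in injured dnmnatOE pulldowns, 2.11 to 2.44% and 3.09 to 3.82% in wild type, and 2.76 to 2.86% and 2.76 to 3.03% in background. The male RNAs roX1 and roX2 held 0.123 to 0.148% and 0.0322 to 0.0479% in dnmnatOE, 0.0756 to 0.0947% and 0.0338 to 0.0464% in wild type, and 0.108 to 0.115% and 0.0638 to 0.0784% in background. The 9 photoreceptor genes went from 1.64 to 1.89% to 1.00 to 1.04% in dnmnatOE pulldowns, from 1.25 to 1.41% to 1.09 to 1.28% in wild type, and were 1.89 to 1.93% and 1.94 to 2.07% in background. Head fat body, glia and antennal support cell genes were high in the uninjured dnmnatOE pulldowns. The 5 fat body genes held 0.726 to 0.862% there against 0.416 to 0.481% in background and 0.389 to 0.431% in wild type, and at 7 dpa 0.638 to 0.727% against 0.340 to 0.399% and 0.352 to 0.428%. The 5 glial genes held 0.0517 to 0.0693% there, against 0.0325 to 0.0492% in background and 0.0307 to 0.0432% in wild type, and 0.0315 to 0.0378% in dnmnatOE at 7 dpa. The 6 antennal support cell genes held 0.0553 to 0.0742%, against 0.0270 to 0.0292% in background and 0.0289 to 0.0347% in wild type, and 0.0196 to 0.0241% in dnmnatOE at 7 dpa. The 4 hemocyte genes held at most 0.0330% of any pulldown library. The part of these shifts in the changes of the ribosomal protein genes was not tested. With bulk libraries, fewer cells of a type and less RNA per cell cannot be told apart.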

How the data were processed

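RNA-seq libraries of 36 fly head samples (12 groups of 3) were analysed from the gene counts that the authors deposited, 1 file per library. Per the labels and the methods of the study, the authors trimmed reads with Trimmomatic, aligned them with HISAT2 to the Drosophila genome, sorted them with SAMtools and counted reads per gene with HTSeq. Tool versions and the strand setting of the counting are not given in the sources used here. The counts are whole numbers and were not normalized. The 5 summary rows of each file were left out of library sizes. Reads ambiguous between genes made up 48.5 to 60.3% of a pulldown library and 1.92 to 3.21% of an input library.

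Genes were named from an Ensembl annotation, which held 17559 of the 17611 identifiers. Members were tested with all other genes in R 4.3.3 with edgeR 4.0.16 (filterByExpr, TMM scaling, robust quasi-likelihood fit with 1 coefficient per group), in 1 fit of the 18 pulldowns (7213 genes, 80 members), 1 of the 18 inputs (10437 genes, 83 members) and 1 of all 36 libraries (9860 genes) for pulldown over input. P-values were adjusted over all genes of a fit by Benjamini-Hochberg, and a call needed an adjusted p not above 0.05 with a log2 fold change past 0.6 in size. CPM use the TMM-scaled library sizes of a fraction. Shares of gene counts were compared by exact permutation in SciPy 1.17.1. The fit was tested on simulated data.

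Named genes were, per comparison, up to 5 called members per direction with the largest fold change and a mean of at least 50 counts, the 5 highest and lowest per length, and the stalk proteins, ubiquitin fusions, RpS6, RpL41 and members with a second copy. Values of 2 members that the rule named are not reported here, and both are included in every count and median. Other members, such as RpL19, RpL39 and RpS20, and Xrp1 and crc were named after their values were seen. The comparisons of changes with injury against background were added after the data were seen. The members and lists were chosen with earlier results of these data known. Alternatives were DESeq2 1.42.0, RLE size factors, no filter or a mean of at least 50 counts, no ribosomal RNA rows (138), a replicate block, a fit of the groups compared, each library left out and, chosen after seeing the data, scaling by total counts. No 2 libraries of a group agreed within sampling noise (chi-square per gene 4.04 to 34.3). Replicate numbers did not pair libraries: residuals of same-numbered libraries correlated between -0.04 and 0.03 in 45 pairs of each fraction, and those of input and pulldown libraries of 1 group and number between -0.04 and 0.02 in 18 pairs.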

Additional observations from a re-analysis of the deposited data

Results flagged for a closer look

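The change with injury in pulldowns differed between dnmnatOE and wild type for 20 members, by the test of the difference itself (1.77% of all genes called higher and 1.28% lower), and among the largest differences on the log2 scale were those of RpS13 (1.44), RpL32 (1.40) and RpL35 (1.25). The count of 20 fell to 10 on leaving out 1 library and to 7 by total counts. Against background it differed for 36 members (2.73% of all genes higher and 1.87% lower, and 16 members by total counts), with RpL32 (1.84), RpS13 (1.5), RpS28b (1.48), RpL27 (1.27) and RpL13A (1.18) in front. In inputs the same difference between dnmnatOE and wild type was called for 1 member (13% of all genes higher), RpS5b, which had few counts. The pulldown-over-input ratio differed between a tagged genotype and background for 22 members in wild type uninjured (2.08% of all genes lower), 2 in wild type at 7 dpa (0.801%), 71 in dnmnatOE uninjured (1.72%) and 46 in dnmnatOE at 7 dpa (4.81% lower and 5.34% higher). The last count fell to 17 on leaving out 1 library and became 2 higher by total counts. The causes of these differences were not tested.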

How the results depend on the processing

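The rise with injury in dnmnatOE pulldowns (69 members) had 66 to 72 calls and the lower level in uninjured dnmnatOE against background (72) had 53 to 72 over every setting run. Counts under other settings are given here without the share of all genes called there. They are not read as results about the members. With DESeq2 the pulldown counts became 2 in dnmnatOE over wild type and 2 in wild type over background at 7 dpa, and in inputs 1 in wild type over background at 7 dpa and 1 in dnmnatOE over wild type uninjured. RLE size factors, no filter and leaving out ribosomal RNA rows each gave 1 for that last count. With no filter wild type over background had 0 and dnmnatOE over background 7 at 7 dpa. A mean of at least 50 counts gave 2 in dnmnatOE over wild type at 7 dpa and 1 in the difference of changes between wild type and background, 0 in inputs for dnmnatOE over wild type at 7 dpa and for its difference of changes, and 41 and 10 for the ratios of wild type against background. Fits of the compared groups alone gave 2 in dnmnatOE over wild type at 7 dpa, 5 in wild type over background uninjured, 6 for wild type with injury and 13 for the difference of changes with wild type. In inputs they gave 0 for dnmnatOE over wild type in both conditions and its difference of changes and 1 for wild type over background at 7 dpa, and for the ratios of wild type against background 11 and 0.

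Total-count scaling, chosen after seeing the data, moved most values. Its counts are given without the share of all genes called under it, so they are not read as a result about the members. In pulldowns it called 3 higher in dnmnatOE over wild type at 7 dpa (median 0.20), 5 in wild type and 3 in dnmnatOE over background at 7 dpa, 6 in dnmnatOE over wild type uninjured, 22 and 40 with injury in background and wild type, and 7 and 16 in the differences of changes with wild type and background. RpL40, RpS27A and RpS10b then had 0.06, 0.07 and 0.01 in uninjured dnmnatOE over wild type. In inputs it called 2 lower in dnmnatOE over wild type at 7 dpa (median -0.10), 1 in wild type over background at 7 dpa (median -0.21), 0 in dnmnatOE over wild type uninjured, and 1, 6 and 12 lower with injury in background, wild type (median -0.25) and dnmnatOE (median -0.28), and the median difference of changes was -0.04. For the ratios it called 37 and 0 in wild type and 2 higher in dnmnatOE at 7 dpa (median 0.13). 

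Leaving out 1 library gave 1 to 2 calls in dnmnatOE over wild type, 0 to 1 in wild type over background and 6 to 11 in dnmnatOE over background at 7 dpa, 10 to 16 in wild type over background uninjured, 5 to 12 for injury in background, and 10 to 28 and 0 to 1 for the differences of changes of dnmnatOE over wild type and of wild type over background. In inputs it gave 0 to 1 in dnmnatOE over wild type at 7 dpa (1 lower without wild type replicate 1), wild type over background at 7 dpa, injury in background and the difference of changes, and 0 to 2 in dnmnatOE over wild type uninjured. For the ratios it gave 13 to 20 and 0 to 4 in wild type and 17 to 47 in dnmnatOE at 7 dpa. RpL24-like in dnmnatOE with injury then ranged from -0.15 to 0.14, with -0.06 and -0.03 in 2 other runs. Replicate numbers did not pair libraries within or between fractions, and a replicate block gave 0 in wild type over background at 7 dpa in pulldowns and 0 in inputs for dnmnatOE over wild type at 7 dpa and its difference of changes, and moved no other count by over 1.5 times. The BCV over all genes was 0.460 in pulldowns and 0.198 in inputs.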
